A study of Mus musculus with 2 samples.

Results

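The cells described here are the tumor mononuclear phagocytes (TMPs) with the largest share of their transcripts on the 3 genes of complement C1q, C1qa, C1qb and C1qc. Cells of both single-cell libraries were pooled, those with 200 to 7000 detected genes and at most 30% of their unique molecular identifiers (UMIs, 1 per captured RNA molecule) on mitochondrial genes were kept, and they were ranked by the percentage of UMIs on the 3 C1q genes. The highest 5%, which was 718 of 14351 cells, were taken as C1q-high cells, and all others are called the remaining cells. The choice rests on measured C1q values, so C1q levels are given below as a description of the choice. Other genes are compared with the remaining cells of the same library.

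The study sorted MerTk+ CD64+ mononuclear phagocytes by flow cytometry from B16 melanoma tumors growing in C57Bl/6 mice and sequenced 1 droplet-based 3' library per genotype, with 128408544 UMIs in Fcmr+/+ and 124630621 in Fcmr-/-. B16 is a melanoma cell line derived from C57Bl/6 mice. One library came from Fcmr+/+ mice and the other from Fcmr-/- mice, which lack Fcmr (Toso), a receptor for soluble IgM. The mice carried the deletion in every cell type, no further treatment is labelled, and the number of mice behind each library is not given in the sources used here. With 1 library per genotype, a difference between genotypes cannot be told apart from a difference between libraries, mice or sorts, so no difference carries a p-value, and all intervals are 95% intervals that cover counting error only.

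C1q is the recognition molecule of the classical complement pathway. It is built from A, B and C chains, each with a collagen-like stalk and a globular head, and it binds immune complexes and dying cells, after which the proteases C1r and C1s cleave C4 and C2. Unlike most complement proteins, which come mainly from the liver, C1q is made largely by macrophages and dendritic cells, and C1q-rich macrophages are found in many tissues and tumors.

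The 3 genes lie side by side on the minus strand of mouse chromosome 4 (GRCm38). C1qb (ENSMUSG00000036905) spans 136880129 to 136886187, C1qc (ENSMUSG00000036896) spans 136889804 to 136893065, and C1qa (ENSMUSG00000036887) spans 136895917 to 136898803. The nearest protein-coding neighbours were close to silent in these cells: Epha8 had 0 UMIs in either library, Ephb2 stayed at or below 0.146 UMIs per 1000000 UMIs (CPM), and Zbtb40 stood between 1.61 and 3.91 CPM. The sequences before the starts of C1qb and C1qc are shown because the 3 chains move together in these cells. They are taken from RefSeq (GRCm38.p6), read 5' to 3' on the gene's own strand, at chr4:136886201-136886450 for C1qb (250 bases) and chr4:136893066-136893164 for C1qc (99 bases, which keeps clear of an annotated C1qc exon), with matched motifs in capitals.

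C1qb: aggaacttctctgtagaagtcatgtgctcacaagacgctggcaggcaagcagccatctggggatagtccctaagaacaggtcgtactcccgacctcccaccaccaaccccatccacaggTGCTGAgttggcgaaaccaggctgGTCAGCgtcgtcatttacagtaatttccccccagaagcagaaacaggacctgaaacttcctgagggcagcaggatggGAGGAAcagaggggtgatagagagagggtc

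C1qc: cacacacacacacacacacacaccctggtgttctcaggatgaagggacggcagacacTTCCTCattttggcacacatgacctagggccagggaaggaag

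Motifs searched on both strands were TGCTGA and GCTGAC, the flanks of the element bound by Maf factors, GAGGAA, the core bound by PU.1, TATAAA (the TATA box) and CACGTG (the E-box). The C1qb window held TGCTGA 131 bases before the start on the gene's strand, GCTGAC 107 bases before it on the opposite strand, and GAGGAA 30 bases before it on the gene's strand. The C1qc window held GAGGAA on the opposite strand, 193 bases before the RefSeq start. Windows of 250 bases before 32851 RefSeq starts held TGCTGA in 16.1%, GCTGAC in 12.9% and GAGGAA in 23.3%, and GAGGAA was in 9.91% of windows of 99 bases. TGCTGA and GCTGAC overlap each other in TGCTGAC, and the matches here do not. A match describes letters in these windows and not a site.

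The C1q-high cells came from both libraries. In Fcmr+/+ they were 263 of 6352 cells (4.14%, exact Clopper-Pearson interval 3.66 to 4.66), and in Fcmr-/- they were 455 of 7999 cells (5.69%, 5.19 to 6.22). Fcmr-/- cells were thus 63.4% of C1q-high cells (59.7 to 66.9) and 55.7% of all cells. That percentage was 57.2 (53.5 to 60.9) when cells were ranked on C1qb alone, an interval that includes the 55.7% of all cells, so the excess was not beyond counting error on that chain.

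The C1q share was a continuous measure with no gap at the threshold. The lowest C1q-high cell had 1.49918% of its UMIs on C1q and the highest remaining cell 1.49874%. A total of 236 C1q-high cells lay below 1.6%, 304 remaining cells lay at or above 1.4%, and 95 cells reached 2%. The highest cell reached 3.18% in Fcmr+/+ and 3.26% in Fcmr-/-. On this measure the C1q-high cells are the upper end of a range. Because they were chosen by it, it cannot show whether they form a separate type.

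**Figure D1:**
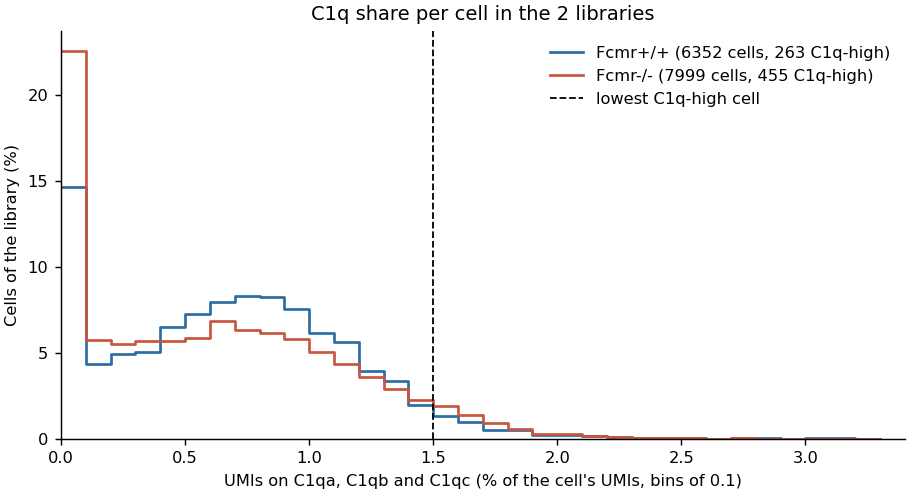
Distribution of the percentage of UMIs on C1qa, C1qb and C1qc per cell (x axis) as percent of the cells of each library (y axis), with the threshold marked. The distributions run through the threshold without a gap, and the lowest class, below 0.1%, held more of the Fcmr-/- cells than of the Fcmr+/+ cells.

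The median share of C1q-high cells was 1.66% in Fcmr+/+ and 1.67% in Fcmr-/-. The remaining cells differed more between libraries, with medians of 0.664% and 0.533%. A total of 22 remaining Fcmr+/+ cells (0.361%) and 92 remaining Fcmr-/- cells (1.22%) had no C1q UMI at all. C1q UMIs were thus found in nearly all sorted cells. Free RNA in droplets can give such UMIs, and its part was not tested.

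All 3 chains carried the difference. C1qb was the most abundant chain in the C1q-high cells of both libraries, with 6976 CPM in Fcmr+/+ and 6641 CPM in Fcmr-/-, against 3093 and 2779 CPM in the remaining cells. C1qa stood at 5941 and 6017 CPM against 2131 and 2055 CPM. C1qc stood at 4398 and 4441 CPM against 1860 and 1692 CPM. In C1q-high cells C1qa, C1qb and C1qc made up 34.3%, 40.3% and 25.4% of C1q UMIs in Fcmr+/+, and 35.2%, 38.8% and 26.0% in Fcmr-/-. Ranking on a single chain returned 528 (C1qa), 493 (C1qb) or 486 (C1qc) of the 718 cells.

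Depth and cell quality were compared between C1q-high and remaining cells because both can move a share of UMIs. In Fcmr+/+ the median C1q-high cell held 15011 UMIs and 3449 genes, against 18153 UMIs and 3769 genes in the remaining cells. In Fcmr-/- it held 13869 UMIs and 3370 genes, against 12840 UMIs and 3142 genes. The direction of the depth difference was thus opposite in the libraries. Mitochondrial UMIs were 5.10% against 4.68% in Fcmr+/+ and 4.94% against 4.02% in Fcmr-/-. After thinning each cell to 5000 UMIs, 583 of the 718 cells stayed in the highest 5%. The libraries shared 73 barcodes, no barcode was C1q-high in both, and 4 C1q-high cells had a barcode that also occurred in the other library.

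The cells carried the transcripts for which they were sorted. Mertk, the receptor tyrosine kinase of apoptotic cell uptake, had 108 CPM in C1q-high against 61.2 CPM in remaining Fcmr+/+ cells, and 70.3 against 47.5 CPM in Fcmr-/- (log2 ratios 0.80 and 0.56). Fcgr1, which encodes CD64, had 282 against 249 CPM and 433 against 392 CPM (0.18 and 0.14). Adgre1 (F4/80) had 419 against 301 CPM and 525 against 349 CPM. All 15 macrophage genes on the list were measured, with median log2 ratios of 0.43 and 0.33. Itgam (CD11b) and Cd14 were the exceptions, with negative ratios in both libraries. Fcmr itself was too rare to check the genotype labels: C1q-high cells had 0 Fcmr UMIs in both libraries, which allows up to 0.849 CPM in Fcmr+/+ and 0.538 CPM in Fcmr-/- (exact Poisson limit), and the remaining cells had 7 and 6 UMIs.

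Many defining markers of other cell types had 0 UMIs in C1q-high cells, but the summed levels of the lists were not all near 0. Of 11 T and NK cell markers measured, 8 had 0 UMIs in C1q-high Fcmr+/+ cells and 6 in Fcmr-/- cells, and their summed level was 5.75 against 4.24 CPM in the remaining cells in Fcmr+/+ and 5.54 against 19.8 CPM in Fcmr-/-, mostly Cd4 in C1q-high cells. The B and plasma cell markers Pax5, Mzb1 and Jchain had 0 UMIs in both, with Cd79b holding nearly all of a sum of 18.6 against 12.3 CPM in the remaining Fcmr+/+ cells and 22.6 against 12.5 CPM in Fcmr-/-. The neutrophil markers Ly6g, Camp, Ngp, Retnlg and S100a9 had 0 UMIs in both, while Csf3r was the most abundant of that list in C1q-high cells, and the list summed to 51.1 against 56.3 CPM and 56.7 against 126 CPM. Dendritic cell markers summed to 15.2 against 22.7 CPM and 37.6 against 32.4 CPM, most of it Batf3 in C1q-high cells, and stromal and endothelial markers to 8.52 against 11.4 CPM and 9.62 against 17.1 CPM. Hemoglobin, mast cell and keratinocyte transcripts summed to 2.99 CPM in C1q-high against 28.9 CPM in remaining Fcmr+/+ cells, and to 5.69 against 17.4 CPM in Fcmr-/-. Melanoma transcripts, which phagocytes may carry from engulfed or free RNA, stood at 65.1 against 55.2 CPM and 84.1 against 84.9 CPM, so they were about as frequent in C1q-high cells as in the others.

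Other genes were compared by the CPM of summed UMIs, as a log2 ratio of C1q-high over remaining cells with 1 CPM added to each. A gene was counted as higher or lower at a ratio of at least 1.5-fold, among the 5219 genes that reached 20 CPM in C1q-high or remaining cells of each library, without the C1q chains. In Fcmr+/+, 120 genes (2.3%) were higher and 172 (3.3%) lower in C1q-high cells. In Fcmr-/-, 159 genes (3.05%) were higher and 268 (5.14%) lower. A total of 82 genes (1.57%) were higher in both libraries and 115 (2.2%) were lower in both, and no gene was called in opposite directions. A gene could reach the minimum through 1 group of cells alone, which favours a large ratio. Of the 82 genes, 20 were below 20 CPM in the remaining cells of at least 1 library, among them Cxcl9, C4b, Il18bp, Cd22, Lyve1, Fcna, Pdgfc and Mmp27. Of the 115, 44 were below it in the C1q-high cells of at least 1 library, among them Cxcl3, Areg, Slpi, Inhba, Vcan, Chil3, Mmp13 and Egln3. Ratios of these genes are therefore a description of their levels. The other 62 and 71 genes were above the minimum in both groups of both libraries. The median log2 ratio over all 5219 genes was -0.04 in Fcmr+/+ and -0.02 in Fcmr-/-. At 2-fold, 12 genes were higher and 38 lower in both, of which 7 and 15 were above the minimum in both groups of both libraries.

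**Figure D2:**
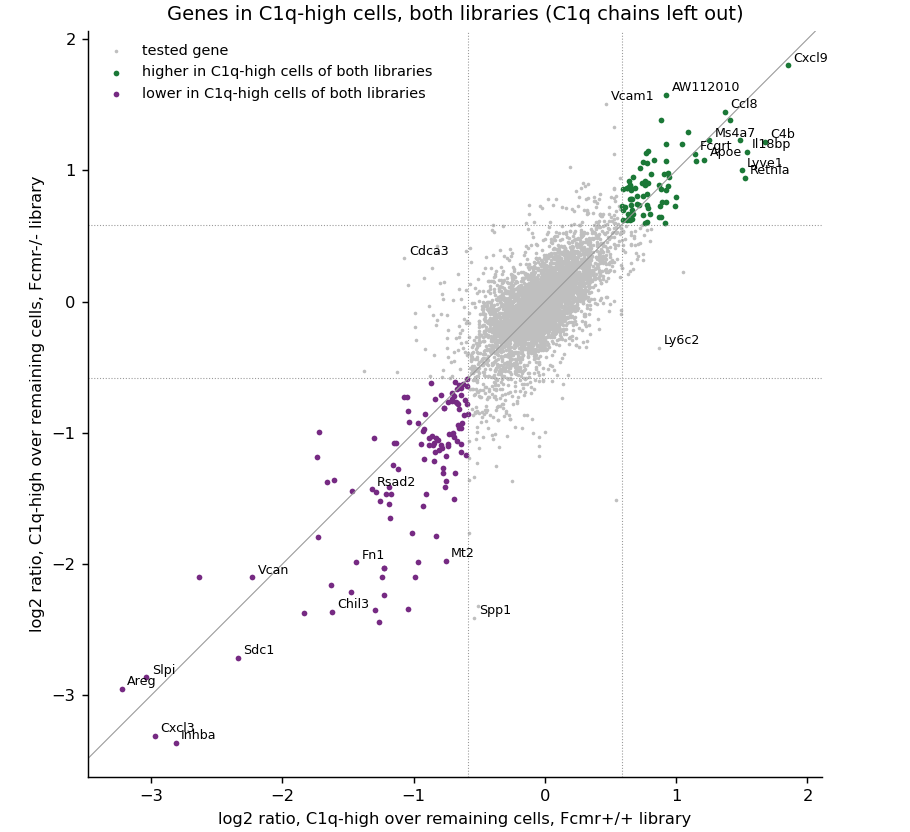
Log2 ratio of C1q-high over remaining cells for each of 5219 genes in Fcmr+/+ (x axis) and Fcmr-/- (y axis), with dotted lines at 1.5-fold. The 82 genes higher in both libraries lie in the upper right corner and the 115 lower in both in the lower left corner.

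Apoe, the lipid carrier protein, had 15018 CPM in C1q-high against 6482 CPM in remaining Fcmr+/+ cells, and 10151 against 4799 CPM in Fcmr-/- (log2 ratios 1.21 and 1.08). Per cell, the median Apoe level was 13605 against 5443 CPM in Fcmr+/+ and 9829 against 3619 CPM in Fcmr-/-, so the higher level was not that of a few cells. Ms4a7, a tetraspan membrane protein of mature macrophages, had 1252 against 526 CPM and 1363 against 581 CPM (1.25 and 1.23). Its per-cell medians were 1110 against 407 CPM and 1269 against 425 CPM. Pltp, the phospholipid transfer protein, had 371 against 167 CPM and 248 against 118 CPM.

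The chemokine Ccl8, a ligand of monocyte and lymphocyte receptors, had 1539 against 595 CPM in Fcmr+/+ and 3443 against 1264 CPM in Fcmr-/- (1.37 and 1.45). Ccl8 was uneven among C1q-high cells, with a 10th percentile of 0 and a 90th percentile of 3565 CPM in Fcmr+/+, and 61.3 and 8185 CPM in Fcmr-/-. The median Ccl8 level of C1q-high cells was 208 CPM in Fcmr+/+ and 1660 CPM in Fcmr-/-. Cd72, an inhibitory receptor best known on B cells, had 74.3 against 27.4 CPM and 122 against 46.4 CPM (1.41 and 1.38). Cd22, another inhibitory receptor of B cells, had 25.8 and 30.2 CPM in C1q-high cells (0.94 and 0.98) and was below 20 CPM in the remaining cells of both libraries. The B and plasma cell list summed to 18.6 against 12.3 CPM and 22.6 against 12.5 CPM, mostly Cd79b, and its part in these ratios was not tested. Il18bp, the secreted decoy receptor of interleukin-18, had 55.7 against 18.5 CPM and 131 against 58.9 CPM (1.54 and 1.14).

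Cxcl9, the interferon-gamma-induced ligand of CXCR3, had ratios that rested on different numbers of cells in the libraries. In Fcmr+/+ it had 50.4 against 13.2 CPM (log2 ratio 1.85), and 1 cell held 175 of its 219 UMIs (79.9%), with 14 of the 263 C1q-high cells having any. In Fcmr-/- it had 571 against 163 CPM (1.80), with a 75th percentile of 361 CPM among C1q-high cells against 0 among the remaining cells. Leaving out the 1% of cells highest in Cxcl9 on each side gave 1.25 in Fcmr+/+, where the levels were then 3.96 against 1.09 CPM, below the minimum used for calls, and ranking cells on C1qc alone gave -0.25 there. Retnla, a secreted product of alternatively activated macrophages, was likewise held by few cells: 1 cell had 541 of 875 UMIs in Fcmr+/+ (61.8%) and 1 cell 208 of 483 UMIs in Fcmr-/- (43.1%). Its log2 ratios of 1.52 and 0.94 became -0.83 and -0.24 without the highest 1% of cells, so its direction rested on those cells.

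Complement genes other than C1q were sparse. Of 24 further complement components listed, 3 reached 20 CPM in both libraries: C4b, Fcna and Cfp. C4b, the component cleaved after C1q binds, had 36.6 against 10.8 CPM in Fcmr+/+ and 45.2 against 18.9 CPM in Fcmr-/- (1.68 and 1.22). Fcna, a ficolin of the lectin pathway, had 48.1 against 24.7 CPM and 26.7 against 14.0 CPM (0.94 and 0.88), and Cfp, the properdin that stabilizes the alternative pathway convertase, had 443 against 350 CPM and 503 against 358 CPM (0.34 and 0.49). C4b reached 20 CPM only in the C1q-high cells, as did Fcna in Fcmr-/-. The C1q partner proteases were low: C1ra had 3.91 CPM in C1q-high Fcmr+/+ cells and 14.4 CPM in Fcmr-/- cells, and C1s1 had 0 and 0.15 CPM. C2 had 0.23 and 1.90 CPM, and C3 had 11.1 and 41.7 CPM. Transcripts of the later classical pathway proteins were thus a small part of what these cells held.

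Of 12 complement and C1q receptors with at least 20 CPM, 3 were at least 1.5-fold higher in both libraries and none lower in both, with list medians of 0.16 and 0.07. Lair1, an inhibitory receptor that binds collagen and C1q, had 177 against 101 CPM and 240 against 150 CPM (0.80 and 0.67). Cd33, an inhibitory sialic acid-binding lectin, had 72.0 against 40.6 CPM and 60.7 against 30.4 CPM, and Itgax, the CD11c chain of complement receptor 4, had 56.4 against 29.4 CPM and 40.7 against 26.6 CPM. The anaphylatoxin receptors differed less: C3ar1 had 458 against 412 CPM and 529 against 494 CPM, and C5ar1 had 468 against 445 CPM and 434 against 427 CPM. Vsig4, a C3b receptor of resident macrophages, stayed under the minimum at 4.83 against 1.38 CPM and 6.56 against 0.96 CPM.

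Of 17 transcription factors linked to C1q or to macrophage identity, none was called in both libraries and 4 were lower in Fcmr-/-, and the medians were 0.14 and -0.03. Maf, which encodes c-Maf, had 487 against 411 CPM and 547 against 438 CPM (0.24 and 0.32). Spi1, which encodes PU.1, had 365 against 326 CPM and 338 against 303 CPM (0.16 in both). The 4 lower in Fcmr-/- were Klf4 (-0.63), Bhlhe41 (-0.84), Nr4a1 (-0.86) and Bhlhe40 (-1.23).

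**Figure D3:**
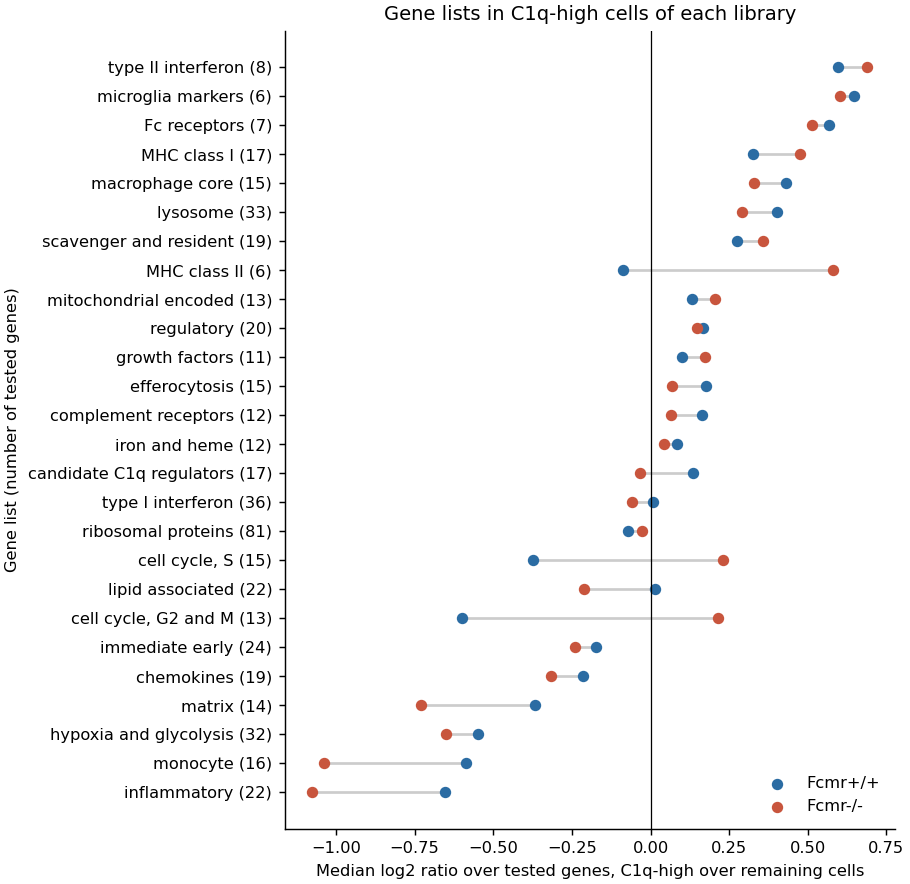
Median log2 ratio of C1q-high over remaining cells (x axis) for each gene list (rows, with the number of genes measured) in Fcmr+/+ and Fcmr-/- (points joined by a line). Fc receptors (medians 0.57 and 0.51) and lysosomal genes (0.40 and 0.29) lie to the right of 0, and inflammatory genes (-0.65 and -1.07) and hypoxia and glycolysis genes (-0.55 and -0.65) to the left.

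Of 7 Fc receptor genes, 3 were higher in both libraries and none was called lower, with medians of 0.57 and 0.51. Fcgrt, the neonatal Fc receptor that recycles IgG, had 195 against 87.9 CPM and 150 against 68.1 CPM (1.14 and 1.13). Fcgr4, an activating IgG receptor, had 184 against 107 CPM and 566 against 258 CPM, and Fcrls, an Fc receptor-like scavenger receptor, had 189 against 103 CPM and 83.4 against 52.9 CPM.

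Of 15 genes of apoptotic cell uptake, only Axl was called in both libraries, with 61.5 against 36.2 CPM and 120 against 57.0 CPM (0.75 and 1.07). Gas6, the bridging ligand of Axl and Mertk, had 347 against 260 CPM and 202 against 141 CPM. Cd36, another uptake receptor on that list, had the opposite sign, with 388 against 501 CPM and 315 against 550 CPM (-0.37 and -0.80). The list medians were 0.18 and 0.07, so uptake genes did not share 1 direction.

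All 33 lysosomal genes were measured, and 4 were higher in both libraries and none lower in both, with medians of 0.40 and 0.29. Hexa, a subunit of beta-hexosaminidase, had 867 against 574 CPM and 901 against 555 CPM (0.59 and 0.70). Ctss, the cathepsin that trims the MHC class II invariant chain, had 4452 against 2626 CPM and 4815 against 3176 CPM, and Man2b1, the lysosomal alpha-mannosidase, had 274 against 144 CPM and 288 against 137 CPM. Ctsb was the most abundant cathepsin, at 8825 against 6859 CPM and 7615 against 6431 CPM. Ctsl and Ctsk went the other way in Fcmr-/-, with 1217 against 2368 CPM and 39.8 against 91.0 CPM.

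Genes of resident-type macrophages were divided. Of 19 measured, 5 were higher and 2 lower in both libraries, with medians of 0.27 and 0.36. The 5 include Retnla, which turned without the highest 1% of cells, and the Fcmr+/+ median was -0.02 with cells ranked on C1qb alone. Lyve1, a hyaluronan receptor of perivascular macrophages, had 69.0 against 23.8 CPM and 34.7 against 16.9 CPM. Its UMIs were in 34 of 263 C1q-high Fcmr+/+ cells and 28 of 455 Fcmr-/- cells, with 19.7% and 16.8% in 1 cell. Without the highest 1% of cells its log2 ratios were 1.56 and 1.42, with both Fcmr-/- groups then below 20 CPM. Sepp1, the selenium carrier selenoprotein P, had 2548 against 1383 CPM and 1535 against 849 CPM (0.88 and 0.85). Folr2 had 382 against 237 CPM and 233 against 161 CPM, and Mrc1, the mannose receptor, had 1081 against 901 CPM and 681 against 624 CPM. The endothelin receptor Ednrb and the eosinophil chemokine Ccl24 were lower in both. Microglia-type genes included Fcrls, P2ry12 and Trem2, with list medians of 0.65 and 0.60 over the 6 of 15 listed genes that were measured. Of the 6, 2 were higher in both libraries, Trem2 not among them, and the lowest ratios were -0.37 and -0.35.

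Lipid-handling genes were also divided, with medians of 0.02 and -0.21 over 22 genes. Apoe was the only one higher in both and Scd2, a fatty acid desaturase, the only one lower in both. Trem2, the lipid-sensing receptor, had 1181 against 717 CPM and 836 against 566 CPM (0.72 and 0.56). Fabp4, Lpl and Cd9 were lower in Fcmr-/- C1q-high cells, with log2 ratios of -1.03, -0.67 and -1.36. A high Apoe level was thus not shared by the list as a whole. Of 12 iron and heme genes, Trf (transferrin) was higher in both libraries (0.71 and 0.74), and Hmox1, the heme oxygenase, was lower in both, with 1477 against 3051 CPM and 988 against 1763 CPM (-1.05 and -0.84).

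Of 22 inflammatory genes measured, 12 were lower in both libraries and none was higher in either, with medians of -0.65 and -1.07. Neutrophil markers moved the same way in Fcmr-/- (56.7 against 126 CPM summed), and their part was not tested. Il1b had 743 against 1676 CPM in Fcmr+/+ and 731 against 2024 CPM in Fcmr-/- (-1.17 and -1.47), and its per-cell medians were 144 against 654 CPM and 153 against 1007 CPM. The neutrophil-attracting chemokine Cxcl3 had 13.6 against 113 CPM and 22.7 against 234 CPM (-2.97 and -3.31), with C1q-high cells below the minimum in Fcmr+/+. Cxcl2 had 1971 against 3525 CPM and 1610 against 3563 CPM. Ptgs2, the cyclooxygenase of prostaglandin synthesis, had 75.5 against 231 CPM and 170 against 438 CPM, and Inhba, the activin A subunit, had 2.99 against 27.0 CPM and 8.31 against 94.7 CPM (-2.81 and -3.36). The epidermal growth factor family ligand Areg (-3.22 and -2.95) and the protease inhibitor Slpi (-3.04 and -2.86) were as low, though 1 cell held 43.8% and 61.8% of the few Areg UMIs in C1q-high cells.

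Of 19 chemokine and chemokine receptor genes, Cxcl9, Ccl8 and Cxcl16 were higher in both libraries and Ccl24 was lower in both, with medians of -0.22 and -0.32. Of 20 immune-regulatory genes, Il18bp was higher in both, and Il1rn and Cd24a were among 3 lower in both, with medians of 0.17 and 0.15.

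Monocyte genes were lower as well: 8 of 16 were lower in both libraries and none was higher in both, with medians of -0.59 and -1.04. Each library had 1 gene of the list called higher, Ly6c2 in Fcmr+/+ (0.87) and the lysozyme Lyz1 in Fcmr-/- (0.78). Vcan and Chil3, products of young monocyte-derived cells, had 5.06 against 27.4 CPM and 6.85 against 32.7 CPM, and 13.1 against 42.5 CPM and 11.8 against 65.0 CPM. Fn1 had 205 against 558 CPM and 129 against 513 CPM. The calcium-binding proteins S100a4 and S100a6 were also lower in both. Lyz2, the most abundant gene of the list and a general myeloid lysozyme, was at 11919 against 8837 CPM and 10468 against 8927 CPM, in the opposite direction. The chemokine receptor Ccr2 of monocytes was at 92.1 against 133 CPM and 71.0 against 139 CPM.

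Hypoxia and glycolysis genes were lower in 13 of 32 cases in both libraries, and all 32 ratios were negative in both, with medians of -0.55 and -0.65. Slc2a1, the glucose transporter GLUT1, had 53.6 against 150 CPM and 61.5 against 169 CPM (-1.47 and -1.44). Egln3, an oxygen-sensing prolyl hydroxylase, had 21.9 against 54.0 CPM and 9.62 against 56.6 CPM, and Vegfa, the vascular growth factor, had 67.7 against 110 CPM and 55.6 against 160 CPM. Among 14 matrix genes, 5 were lower in both libraries, among them Mmp12 and Mmp13, and Mmp27 was higher in both (0.65 and 0.89). Of 11 growth factor genes, Pdgfc and Gdf15 were higher in both (0.87 and 0.89, 0.69 and 0.86), and Vegfa and Areg lower in both.

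Of 36 type I interferon-response genes, none was higher in both libraries and 2 were lower in both, with medians of 0.01 and -0.06. The 2 were Ifit1, with 22.6 against 76.6 CPM and 34.3 against 69.3 CPM, and Rsad2 (viperin), with 70.4 against 177 CPM and 94.1 against 255 CPM. Of 8 genes typical of interferon-gamma, 3 were higher in both, with medians of 0.60 and 0.69: Cxcl9, AW112010 and the guanylate-binding protein Gbp2. AW112010 had 91.8 against 47.9 CPM in Fcmr+/+ and 788 against 264 CPM in Fcmr-/- (0.92 and 1.58), and Gbp2 had log2 ratios of 0.70 and 0.80. In Fcmr+/+ the list's summed level was highest in class 3 of 20 classes by C1q share (484 CPM, against 424 CPM in the highest class). Its median there was -0.14 with cells ranked on C1qc alone. AW112010 itself was highest in class 2 in Fcmr+/+ (86.4 CPM, against 84.9 CPM in the highest class), and Cxcl9 rested there mostly on 1 cell. The ratios of these 3 genes were alike in sign while the levels were several-fold higher in the Fcmr-/- library, in C1q-high and in remaining cells alike. Across the 20 classes the list's sum took opposite trends, with rank correlations of -0.58 in Fcmr+/+ and 0.86 in Fcmr-/-. In Fcmr-/- it was 885 CPM in the lowest and 2649 CPM in the highest class.

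MHC class I genes had medians of 0.33 and 0.48 over 17 genes, with H2-T23 higher in both libraries. B2m, the light chain, had 3403 against 2471 CPM and 4198 against 3356 CPM. MHC class II genes stood apart between libraries. The list summed to 4656 CPM in C1q-high against 4936 CPM in remaining Fcmr+/+ cells, and to 10168 against 6958 CPM in Fcmr-/-. None of the 6 class II genes measured was called in Fcmr+/+ (median -0.09) and 3 were higher in Fcmr-/- (median 0.58). Per cell, the median H2-Ab1 level of C1q-high cells was 111 CPM in Fcmr+/+ and 1049 CPM in Fcmr-/-, against 131 and 330 CPM in the remaining cells. The Fcmr+/+ median of the list was -1.35 with cells ranked on C1qc alone and -0.52 with the top 10%, and the Fcmr-/- median stayed between 0.44 and 0.76. Cd74, the invariant chain, had per-cell medians of 214 against 440 CPM in Fcmr+/+ and 3591 against 1306 CPM in Fcmr-/-. The per-cell median of both genes was thus below that of the remaining cells in Fcmr+/+ and above it in Fcmr-/-. Dendritic cell markers had summed log2 ratios of -0.55 in Fcmr+/+ and 0.21 in Fcmr-/-, and their part was not tested.

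Cell cycle genes also took opposite signs. Over 13 genes of G2 and mitosis the median log2 ratio was -0.60 in Fcmr+/+, with 7 lower, and 0.21 in Fcmr-/-, with none called. Mki67 had 54.5 against 83.2 CPM in Fcmr+/+ and 68.8 against 64.6 CPM in Fcmr-/-, and Top2a had 35.7 against 66.7 CPM and 70.4 against 72.2 CPM. Over 15 genes of S phase the medians were -0.37 and 0.23. Depth differed as well, with 15011 UMIs in the median C1q-high and 18153 in the median remaining Fcmr+/+ cell, and its part was not tested beyond the following. With the remaining cells weighted to the depth of C1q-high cells the G2 and mitosis medians were -0.17 and 0.46, and the S phase medians 0.03 and 0.46. With the top 2% of cells taken in place of the top 5%, the Fcmr-/- median of the G2 and mitosis genes was -0.76 and that of the S phase genes -0.02, so their sign depended on where the threshold lay.

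By gene, the ratio differed most between libraries for the following, none of which was tested, since each library stands for 1 genotype. Vcam1, an adhesion molecule for leukocytes, had 132 against 95.8 CPM in Fcmr+/+ and 277 against 96.8 CPM in Fcmr-/- (0.46 and 1.51, a difference of 1.04, interval 0.90 to 1.18). The immunity-related GTPase Iigp1 had 4.14 against 3.16 CPM and 150 against 68.1 CPM. The cell division genes Cdca3, Birc5, Ube2c and Top2a were among the 10 genes with the largest difference toward Fcmr-/-, together with Klra2, Serpina3g and Hgsnat. Iigp1, Klra2 and Serpina3g were below 20 CPM in both groups of cells in Fcmr+/+, where C1q-high cells had 18, 23 and 19 of their UMIs, so they are not among the 5219 genes and reached this place through the Fcmr-/- library. With the top 2% of cells the Fcmr-/- ratios of Cdca3, Birc5 and Ube2c were -0.75, -0.76 and -0.89.

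In the other direction stood Spp1, the secreted phosphoprotein osteopontin, with 1891 against 2748 CPM in Fcmr+/+ and 988 against 5254 CPM in Fcmr-/- (-0.54 and -2.41, a difference of -1.87, interval -1.92 to -1.82). Mt2, a metallothionein, had 267 against 452 CPM and 31.4 against 126 CPM, and Hilpda, a lipid droplet protein induced by low oxygen, had 382 against 571 CPM and 183 against 624 CPM. Ly6c2, a surface protein of classical monocytes, had 55.9 against 30.2 CPM and 85.2 against 109 CPM (0.87 and -0.35), and its Fcmr+/+ ratio was -0.66 with cells ranked on C1qc alone. Spp1 was thus lower in Fcmr-/- than in Fcmr+/+ among C1q-high cells and higher among the remaining cells.

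To see whether these genes followed C1q across all cells or only at its upper end, each library was divided into 20 equal classes by C1q share, and the CPM of each gene was set against the class number. Spearman's rho over 20 classes describes these libraries and carries no p-value, since the classes share a library and C1q is part of the total. The 15 genes with the highest rho in each library shared 5: Grn (progranulin), Hebp1 (heme-binding protein 1), Hexa, Hpgds (the hematopoietic prostaglandin D synthase) and Sepp1, each with a rho of 0.99 in both. Sepp1 ran from 501 CPM in the lowest to 2547 CPM in the highest class in Fcmr+/+, and from 328 to 1536 CPM in Fcmr-/-. The 15 with the lowest rho shared Emilin2, Rgcc and S100a6, and S100a6 ran from 3184 to 1220 CPM and from 3020 to 788 CPM. Median UMIs per cell were 10771 in the lowest class, reached 24867 in class 14 and were 15026 in the highest class in Fcmr+/+, and 8310, 19396 (class 15) and 14008 in Fcmr-/-.

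**Figure D4:**
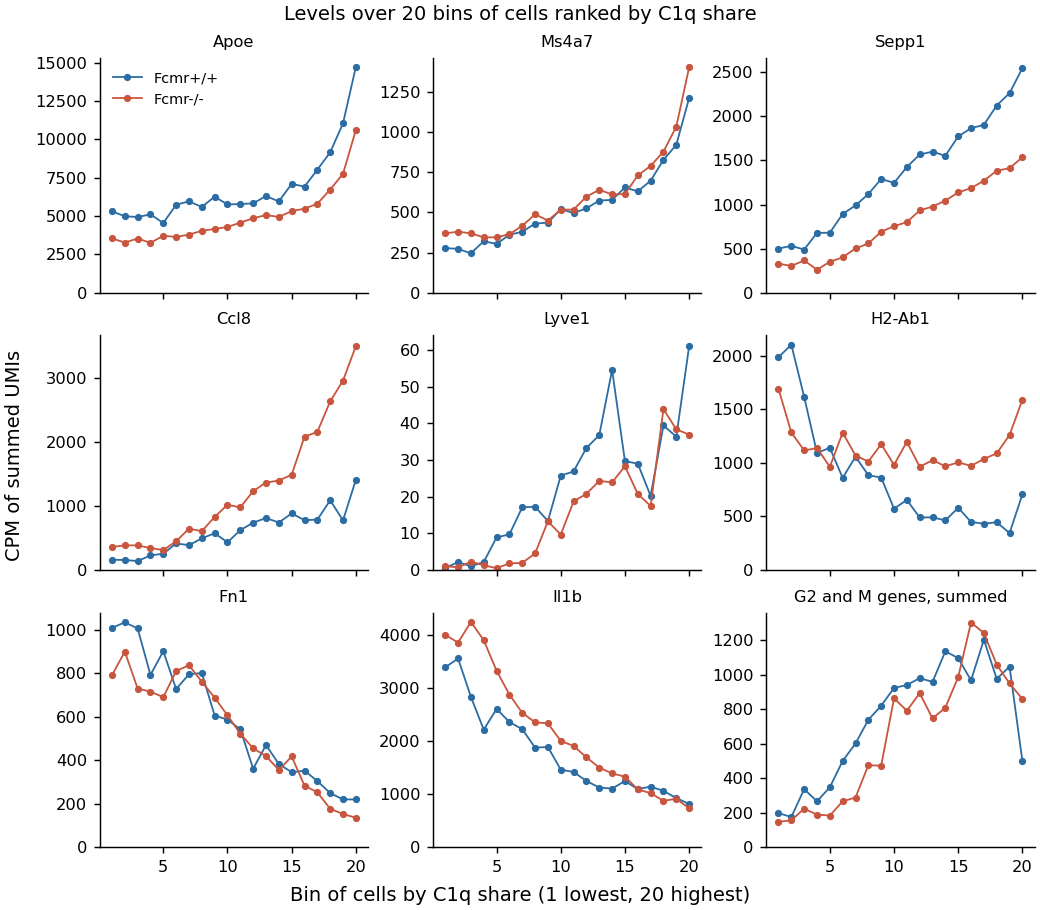
CPM of summed UMIs (y axes, linear, each panel its own scale) in 20 equal classes of cells ordered by C1q share (x axis) for 8 genes and the summed genes of G2 and mitosis in Fcmr+/+ and Fcmr-/-. Sepp1 runs from 501 to 2547 CPM in Fcmr+/+ and from 328 to 1536 CPM in Fcmr-/-, and the G2 and mitosis sum peaks in class 17 and class 16.

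Not every gene followed C1q in a straight line. Mertk followed it (rho 0.95 and 0.96), with 40.9 CPM in the lowest and 104 CPM in the highest class in Fcmr+/+, and 31.2 and 71.7 CPM in Fcmr-/-. Fcgr1 did not (rho -0.68 and -0.61), and was highest among cells low in C1q. Summed genes of G2 and mitosis were low in the lowest class (197 and 147 CPM), peaked in class 17 in Fcmr+/+ (1203 CPM) and class 16 in Fcmr-/- (1302 CPM), and were at 499 and 858 CPM in the highest class. Summed MHC class II genes were at 11670 CPM in the lowest class, 2428 CPM in class 19 and 4570 CPM in the highest class in Fcmr+/+, and at 9694, 8264 and 10445 CPM in Fcmr-/-. Cells at both ends of the C1q range were thus rich in class II in Fcmr-/-, and those at the low end in Fcmr+/+.

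The C1q-high cells were also compared with 12 other groups of cells, each the 5% of pooled cells with the highest share of UMIs on its own genes. In Fcmr+/+ the overlap was largest with the Apoe and Trem2 group. It held 35.0% of C1q-high Fcmr+/+ cells (29.2 to 41.1) against 5.39% of the remaining cells, and 17.4% of C1q-high Fcmr-/- cells (14.0 to 21.2) against 2.90%. The Mrc1, Cd163 and Folr2 group held 18.6% against 6.96% in Fcmr+/+ and 8.35% against 2.74% in Fcmr-/-. In Fcmr-/- the share of C1q-high cells was largest in the Cxcl9 and Iigp1 group, which held 25.7% of them against 7.50% of the remaining cells, and 0.760% against 0.542% in Fcmr+/+. Of the 718 cells of that group, 683 were Fcmr-/- cells, so a pooled ranking gives it a large share in Fcmr-/- whatever the C1q level. Relative to the remaining Fcmr-/- cells its share was 3.43 times as large, and that of the Apoe and Trem2 group 5.98 times.

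Overlap was small with the groups defined by inflammation and hypoxia. The Il1b and Cxcl2 group held 0 of 263 C1q-high Fcmr+/+ cells, which allows a share of up to 1.39% (exact limit), and 0.879% of Fcmr-/- cells, against 4.35% and 5.95% of the remaining cells. The hypoxia group held 1 of 263 and 0 of 455 cells (the latter allows up to 0.807%), against 4.20% and 6.11%. A total of 103 C1q-high Fcmr+/+ cells (39.2%) and 187 Fcmr-/- cells (41.1%) were in none of the 12 groups. The same count was not made for the remaining cells, so it does not set C1q-high cells apart from them. The C1q-high cells thus had members in several of the 12 groups. Each group is the upper end of a ranking, and some C1q-high cells were in more than 1 group. Membership therefore does not define a kind of cell, and whether the C1q-high cells held several kinds was not tested. The shares in these groups differed between the libraries, but library-wide levels bear on a pooled ranking, and their part was not tested.

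Stress-related transcripts were compared because dissociation and cell damage can move expression. Of 24 immediate-early and heat-shock genes none was called in both libraries, with medians of -0.17 and -0.24, and the 13 mitochondrial genes measured had medians of 0.13 and 0.20. Ribosomal protein genes, 81 of them measured, had medians of -0.07 and -0.03. Their part in the differences above was not tested.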

How the data were processed

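Cells were sorted tumor mononuclear phagocytes, 1 library per genotype, prepared with a 10x Genomics 3' kit. The authors made raw UMI counts per gene and cell with Cell Ranger on GRCm38, and these deposited counts, 27998 genes in 14409 cells, were the only values used. The submitters' processing notes also name Seurat 2.1.0. The study's filters (200 to 7000 genes, at most 30% mitochondrial UMIs) removed 58 cells, and no doublet caller was run.

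UMIs were summed over C1q-high and over remaining cells of each library and divided by the total UMIs (CPM). Ratios are log2 of CPM + 1. Intervals of levels and of shares of cells are exact Poisson or exact Clopper-Pearson intervals at 95%. Those of ratios and of differences between ratios are 95% normal approximations from the same counts. All cover counting error only. Genes named are the 20 with the largest and the 20 with the lowest ratios of the same sign in both libraries, the 10 at each end of the difference between libraries (at least 50 CPM), and members of fixed gene lists chosen by ratio and abundance. Members and lists were chosen with earlier results of these data known. The ribosomal list, the promoter motifs and the trimming of the 1% of cells highest in each gene were chosen after seeing the data. The calls were checked on simulated data. Python 3.11.15, numpy 2.4.6, scipy 1.17.1, pandas 2.3.3, R 4.3.3 and edgeR 4.0.16 (for TMM factors) were used. Alternatives covered the ranking, filters, thinning to 5000 UMIs, scaling and pseudocount. Some genes are not reported here.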

Additional observations from a re-analysis of the deposited data

Results flagged for a closer look

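MHC class II genes and the genes of S phase and of G2 and mitosis differed between the libraries in the direction of their summed ratio. The ratio is C1q-high over remaining cells, and the counting intervals of the libraries lay on opposite sides of 0. The same held for lipid-handling genes (0.36 in Fcmr+/+ and -0.03 in Fcmr-/-), transcription factors (0.05 and -0.10) and monocyte genes (0.04 and -0.22), not followed here. It also held for dendritic cell markers (-0.55 and 0.21), whose part in the class II difference was not tested. These are ratios of sums, to which abundant genes add most. The median of the monocyte list was negative in both libraries (-0.59 and -1.04), while Lyz2, its most abundant gene, was higher in C1q-high cells of both. The medians of the lipid-handling list were 0.02 and -0.21. For MHC class II the log2 ratio of the summed CPM was -0.08 in Fcmr+/+ and 0.55 in Fcmr-/-, a difference of 0.63. Over the alternatives the list median ran from -1.35 (C1qc alone) to 0.10 (C1qb alone) in Fcmr+/+ and from 0.44 to 0.76 in Fcmr-/-, and weighting the remaining cells by depth gave -0.31 and 0.57. For S phase the summed log2 ratios were -0.34 and 0.18, a difference of 0.52, and the medians with remaining cells weighted to the depth of C1q-high cells were 0.03 and 0.46, while the Fcmr-/- median was -0.02 with the top 2%. For G2 and mitosis they were -0.66 and 0.19, a difference of 0.86, the weighted medians were -0.17 and 0.46, and the Fcmr-/- median was -0.76 with the top 2%. With 1 library per genotype these differences between libraries were not tested.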

How the results depend on the processing

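The Fcmr-/- percentage of C1q-high cells was 63.4, and became 55.7 with the top 5% taken within each library (by construction), 59.3 with the top 10% and 57.2 with C1qb alone. The 82 genes higher in both libraries became 54 with the top 10%, 47 with C1qb alone, 175 with no filter beyond 1 UMI and 12 at 2-fold. The 115 genes lower became 69 with a filter of 50 CPM, 302 with no filter beyond 1 UMI and 38 at 2-fold. The other alternatives gave counts within 1.5 times of these. Without the 1% of cells highest in each gene, an alternative added after seeing the data, 74 genes were higher, 73 of them among the 82, and 113 lower, 100 of them among the 115. After thinning to 5000 UMIs, 61 of the 82 and 100 of the 115 were called again.

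Of the 20 named higher genes, 18 kept their sign in the 16 alternatives for ratios other than the added one, as did the 20 named lower genes, with 13 and 19 staying past 1.5-fold. Retnla in Fcmr+/+ turned to -0.80 with the top 2%, -1.23 after thinning, -1.30 with at most 5000 genes per cell, -1.32 with C1qb alone and -0.83 without the highest 1% of cells, where it was -0.24 in Fcmr-/-. With the top 2%, Fcmr-/- ratios turned for Cdca3 (-0.75), Birc5 (-0.76), Ube2c (-0.89) and the G2 and mitosis median (-0.76), and with C1qb alone for Ube2c (-0.65). In Fcmr+/+ the G2 and mitosis median was 0.029 with the top 10%, and with C1qc alone Cxcl9 (-0.25), Serpina3g (-1.47), Ly6c2 (-0.66) and the type II interferon median (-0.14) turned. The cause of these changes was not tested.

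No paired analysis was possible because each genotype has 1 library and no test was made. Cxcl9 in Fcmr+/+, and Retnla and Lyve1 in both libraries, rest on few cells, and Fcmr is too rare to check the labels.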
